A study of Mus musculus with 2 samples.

Results

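The 31 genes described here encode the enzymes that build cholesterol and fatty acids and the proteins that control their transcription. They are a list of names by function, covering sterol synthesis, fatty acid synthesis and SREBP control, and the list has no threshold on measured values, though it was drawn up with earlier results of these data known. Of the 31, 28 were matched to a row of the expression table, among 16579 genes matched in all, and Idi1, Fdps and Insig1 were not matched. Expression was measured in Lsh-/- mouse embryonic fibroblasts (MEF) and in Lsh+/+ fibroblasts, with 1 Affymetrix Mouse Genome 430 2.0 array for each genotype. Lsh, the product of Hells, is a chromatin remodelling protein of the SNF2 family that is needed for normal DNA methylation. Both cell lines grew in the same serum-containing medium, and the sources used here give neither the age of the embryos nor the form of the Lsh allele. The study set out to relate DNA methylation outside repeats to gene expression.

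Cells make cholesterol from acetyl-CoA through mevalonate, isoprenoids, squalene and lanosterol. Fatty acids also start from acetyl-CoA, which is carboxylated, condensed to palmitate, and then elongated and desaturated. Both routes are under the transcription factors of the SREBP family, which are held in the endoplasmic reticulum by SCAP and INSIG proteins while sterols are abundant and are cut free when sterols run low. In fibroblasts in culture, serum lipoproteins supply sterol, and this supply dampens SREBP activity.

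All values are log2 expression values made by robust multi-array average (RMA), and each difference is Lsh-/- minus Lsh+/+. Genes were kept if their brighter value was no lower than the median row of its array, 3.88 on the Lsh-/- array and 3.86 on the Lsh+/+ array. This dimness limit says nothing of detection. Where 1 array was dimmer than it, the fold over the limit is given as "at least". With 1 array for each genotype there was no replicate and no test, and genes are counted past 2-fold by their size only. Levels are compared within a gene, between arrays, and not between genes.

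Hells itself read 5.22 in Lsh-/- MEF and 6.68 in Lsh+/+ MEF, 2.75-fold lower. The sources used here do not place its probes relative to the change in the Lsh allele. Of 12 fibroblast markers 11 were kept, with Fn1 at 12.5 on both arrays and Vim at 10.3 in Lsh-/- MEF and 10.4 in Lsh+/+ MEF, while Thy1 lay below the limit on both. Of the 11, 6 were at least 2-fold lower in Lsh-/- MEF, where 6.06% of all kept genes were, and the median of the 11 was -1.15. The farthest were Col1a2, S100a4 and Fbn1, with differences of -4.43, -3.99 and -1.59, and Lum, whose Lsh-/- value lay below the limit and which was at least 5.43-fold lower. Pdgfra and Pdgfrb differed by -1.19 and -1.15. Col3a1 was the only 1 of the 11 above 0, at 10.5 in Lsh-/- MEF and 9.68 in Lsh+/+ MEF, a difference of 0.78. All 9 hepatocyte markers lay below the limit on both arrays, from 1.31 for Serpina1a to 3.22 for Ahsg in Lsh-/- MEF. So did the adipocyte markers Adipoq, Cidec, Lep, Cfd and Pparg, while 6 of the 12 adipocyte markers were kept. Among the kept ones Lpl read 8.48 in Lsh-/- MEF and 6.65 in Lsh+/+ MEF. Of 12 markers of endothelial, blood, epithelial, muscle and neural cells 3 were kept. The epithelial Krt18, whose Lsh+/+ value lay below the limit, was at least 33.4-fold higher in Lsh-/- MEF. The endothelial Kdr differed by 1.82 and Krt8 by 0.24, while Epcam, Cdh1, Pecam1, Cdh5 and Ptprc lay below the limit on both arrays. The 3′ to 5′ gap of the control probe sets, a sign of RNA integrity, was wider on the Lsh-/- array by 0.60 for Actb and 0.70 for Gapdh, while that of ribosomal RNA went the other way, at 1.52 on the Lsh-/- array and 2.11 on the Lsh+/+ array. Their part in the results below was not tested, and fewer cells of a type and less RNA per cell cannot be told apart in bulk RNA.

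Most of the pathway read much the same on both arrays. Of the 31 genes 27 were kept, 1 (Hsd17b7) lay below the limit on both arrays and 3 were unmatched. Tm7sf2 was the only kept member at least 2-fold higher in Lsh-/- MEF, 1 of 27 or 3.70%, where 426 of all 9168 kept genes or 4.65% were. Sc5d and Scd1 were at least 2-fold lower, 2 of 27 or 7.41%, where 556 kept genes or 6.06% were. Both shares lay near those of all genes. The median difference of the 27 was -0.05, against 0.01 over all kept genes, and the median size of the difference, sign aside, was 0.34 against 0.35. Differences lay above 0 for 12 members, or 44.4%, and for 50.5% of all kept genes. Within 1.5-fold lay 21 of the 27 members, or 77.8%, and 72.5% of all kept genes.

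These directions are relative to the other genes on the arrays. The 9 hybridisation control probe sets, which report RNA added in a fixed amount at hybridisation, were higher on the Lsh-/- array by a median of 0.44. They ranged from 0.21 to 0.78, and the scaling used the median. Scaling that array to them moved the median of all kept genes to -0.43 and changed the counts of all kept genes to 168 higher and 1349 lower. Calls were then 11.1% higher, against 43.4% before scaling. Among the 27 kept members 5 were then at least 2-fold lower and none higher, where 1349 and 168 of all 9168 kept genes were. Differences above 0 remained for 3 members (Tm7sf2, Hmgcs1 and Scap), against 12 before. By its construction the scaling also lowers the number of all kept genes above 0, which was not counted. Hmgcs1, at 0.76 before scaling, and Scap, at 0.62, lay below the highest control, so their sign rests on use of the median.

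**Figure D1:**
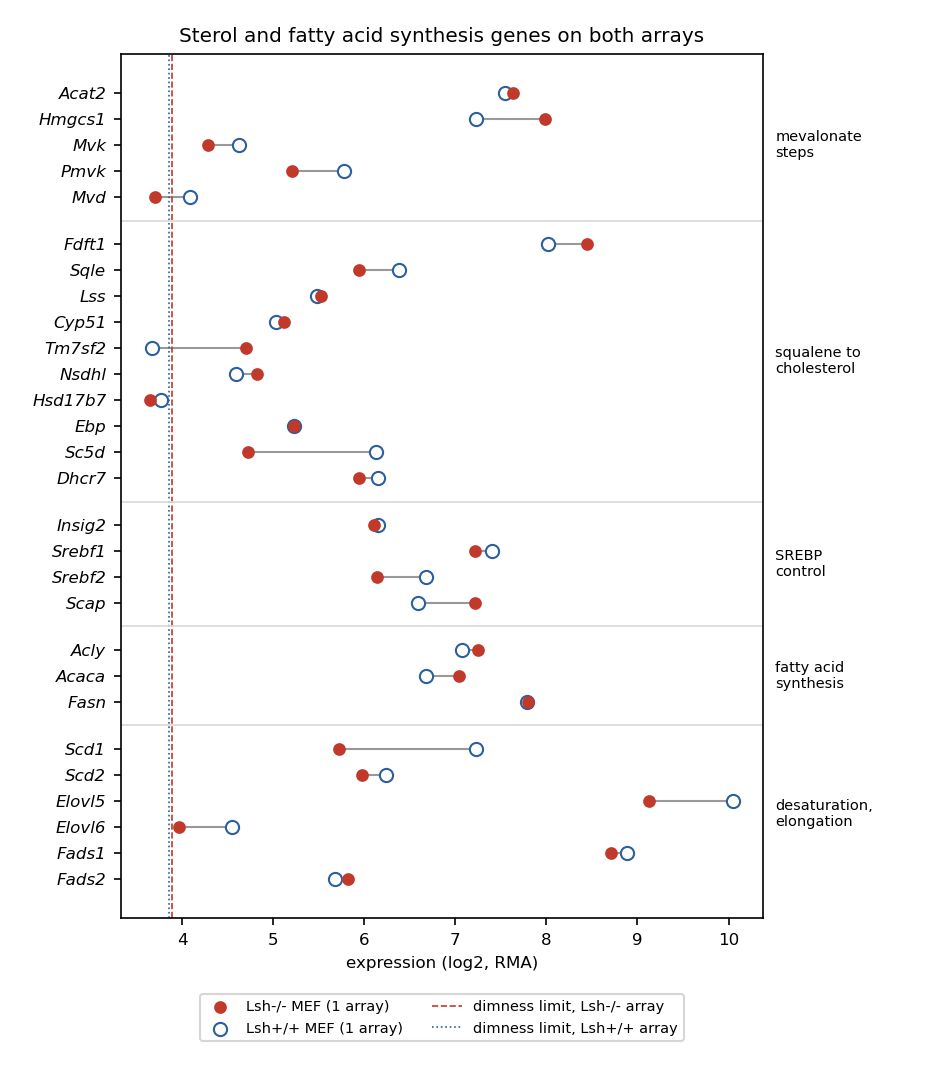
Log2 RMA expression of the 28 matched genes on the Lsh-/- array (filled points) and the Lsh+/+ array (open points), grouped by role, with 1 array for each genotype and the dimness limits as vertical lines. The widest gaps belong to Scd1 (5.72 in Lsh-/- and 7.23 in Lsh+/+ MEF), Sc5d (4.72 in Lsh-/- and 6.12 in Lsh+/+ MEF) and Tm7sf2 (4.70 in Lsh-/- and 3.67 in Lsh+/+ MEF), and the points of Ebp, Fasn and Lss nearly coincide.

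The early steps, to mevalonate and the isoprenoid units, had no gene past 2-fold among 5 kept, and Hmgcs1 lay farthest from 0. Hmgcs1, the synthase that makes HMG-CoA and a classical SREBP target, read 7.98 in Lsh-/- MEF and 7.22 in Lsh+/+ MEF. Its difference of 0.76, or 1.69-fold, was the second highest among the kept members, and 8.39% of all kept genes had a higher one. It stayed above 0 under every alternative run, from 0.32 with the scaling to the hybridisation controls to 0.82. Acat2, the cytosolic thiolase one step earlier, read 7.63 in Lsh-/- MEF and 7.54 in Lsh+/+ MEF, a difference of 0.09.

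The 3 enzymes that follow mevalonate all had differences below 0. Mvk, mevalonate kinase, read 4.28 in Lsh-/- MEF and 4.62 in Lsh+/+ MEF, a difference of -0.34. Pmvk, which adds the next phosphate, read 5.20 in Lsh-/- MEF and 5.77 in Lsh+/+ MEF, a difference of -0.57. Mvd, the decarboxylase, read 3.70 in Lsh-/- MEF, below the limit, and 4.09 in Lsh+/+ MEF, at least 1.15-fold. None of these 3 reached 2-fold, and their sign was the same under every alternative that kept them. Pmvk reached -1.01 after scaling to the hybridisation controls. The second rows of Pmvk and Mvd held the same values as the first, so they add no measurement.

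From squalene to cholesterol the enzymes split, with 5 of 9 kept genes above 0, 3 below and 1 at 0, and a median of 0.04. The share above 0 was 55.6% of the 9, near the 50.5% of all kept genes. Fdft1, squalene synthase, read 8.44 in Lsh-/- MEF and 8.01 in Lsh+/+ MEF, a difference of 0.43 that was -0.01 after scaling to the hybridisation controls. Sqle, squalene epoxidase and a rate-limiting step, went the other way, with 5.94 in Lsh-/- MEF and 6.38 in Lsh+/+ MEF, a difference of -0.44. The neighbouring enzymes of the route to lanosterol thus had opposite signs, both within 1.5-fold.

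The middle of the sterol branch was nearly flat. Lss, which folds squalene epoxide into lanosterol, read 5.52 in Lsh-/- MEF and 5.48 in Lsh+/+ MEF. Cyp51, the lanosterol demethylase, read 5.11 in Lsh-/- MEF and 5.03 in Lsh+/+ MEF. Nsdhl, an X-linked enzyme of demethylation, read 4.82 in Lsh-/- MEF and 4.59 in Lsh+/+ MEF, a difference of 0.23. Their differences of 0.04, 0.08 and 0.23 all turned below 0 after scaling to the hybridisation controls, as far as -0.39 for Lss, and that of Lss was also -0.004 after removal of the intensity trend. Ebp, the sterol isomerase, read 5.23 on both arrays, the identical value, and was 1 of 113 kept genes with no difference at all. Hsd17b7, a sterol ketone reductase, read 3.65 in Lsh-/- MEF and 3.76 in Lsh+/+ MEF, below both limits.

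Tm7sf2 and Sc5d, which act on the double bonds of the sterol rings, stood apart in opposite directions. Tm7sf2, a sterol reductase whose reaction LBR can also carry out, read 4.70 in Lsh-/- MEF and 3.67 in Lsh+/+ MEF, a measured difference of 1.03. Its Lsh+/+ value lay below the limit, and over the limit the gene was at least 1.79-fold higher, so its place past 2-fold rests on a dim value. With values below the limit set to the limit the difference was 0.84, and with a pseudocount of 32 added before the log 0.37. Lbr, the partner enzyme, read 7.50 in Lsh-/- MEF and 7.19 in Lsh+/+ MEF, a difference of 0.30.

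Sc5d, the desaturase of the last steps, read 4.72 in Lsh-/- MEF and 6.12 in Lsh+/+ MEF, both above the limit. The difference was -1.41, or 2.65-fold lower, and 3.18% of kept genes had a lower one. With the pseudocount it was -0.80, under 2-fold, and under the other alternatives it lay between -1.84 and -1.30. Dhcr7, the reductase that completes cholesterol, read 5.94 in Lsh-/- MEF and 6.15 in Lsh+/+ MEF, a difference of -0.21. The enzymes before and after Sc5d thus lay within 1.5-fold of the Lsh+/+ level.

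The promoter windows of these sterol genes past 2-fold are shown because the pair differed in opposite directions. Both run from 250 bases before the RefSeq gene start to 50 bases after it, 5′ to 3′ along the gene, in build GRCm38.p6. Capitals mark the letters CCAAT (bound by NF-Y), GGGCGG (bound by Sp1) and CACGTG (an E-box), on either strand. The window of Tm7sf2 lies at chr19:6067801-6068100 and that of Sc5d at chr9:42264251-42264550, both on the minus strand.
Tm7sf2: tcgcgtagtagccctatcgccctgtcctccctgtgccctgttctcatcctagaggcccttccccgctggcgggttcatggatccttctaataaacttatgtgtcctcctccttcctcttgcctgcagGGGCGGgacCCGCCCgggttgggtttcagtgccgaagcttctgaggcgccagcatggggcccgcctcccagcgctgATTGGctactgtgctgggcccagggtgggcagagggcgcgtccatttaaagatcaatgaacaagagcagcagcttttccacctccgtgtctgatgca
Sc5d: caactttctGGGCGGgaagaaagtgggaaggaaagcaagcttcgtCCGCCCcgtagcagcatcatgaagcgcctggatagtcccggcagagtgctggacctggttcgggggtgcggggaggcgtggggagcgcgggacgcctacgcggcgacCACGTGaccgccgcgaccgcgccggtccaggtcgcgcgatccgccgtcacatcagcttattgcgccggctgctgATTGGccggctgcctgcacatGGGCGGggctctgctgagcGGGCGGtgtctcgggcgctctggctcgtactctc

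Both windows held 1 NF-Y motif upstream of the start, read on the reverse strand, at position -47 in Tm7sf2 and -24 in Sc5d, where -1 is the base before the start. Only Sc5d held the E-box, at -98. Neither held the sterol regulatory element core in the spelling TCACNCCAC, searched on both strands. No other spelling was searched, so absence of these letters does not show that a window lacks an SREBP site. Among the 25 members with a window, Hmgcs1 alone held that core. It stands at -137 and is shown in capitals with 10 bases on each side, at chr13:119690204-119690232 on the plus strand.
Hmgcs1: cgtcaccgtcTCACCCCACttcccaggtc

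The core was in 1 of 33 member windows, or 3.03%. It was in 1.24% of all 32851 windows of the table and in 1.12% of the 9437 windows of kept genes. The NF-Y letters were in 21 of 33 member windows or 63.6%, against 37.4% of all windows and 37.6% of those of kept genes. The Sp1 letters were in 72.7% of member windows, against 35.7% of all and 64.8% of those of kept genes. The E-box was in 21.2% of member windows, against 7.15% of all and 10.3% of those of kept genes. Several windows can belong to 1 gene and overlap. A match is a description of letters, and no binding or methylation was measured in these cells. No window was used for Fdft1, Fdps, Sqle, Scd1, Scd2 and Fads1.

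**Figure D2:**
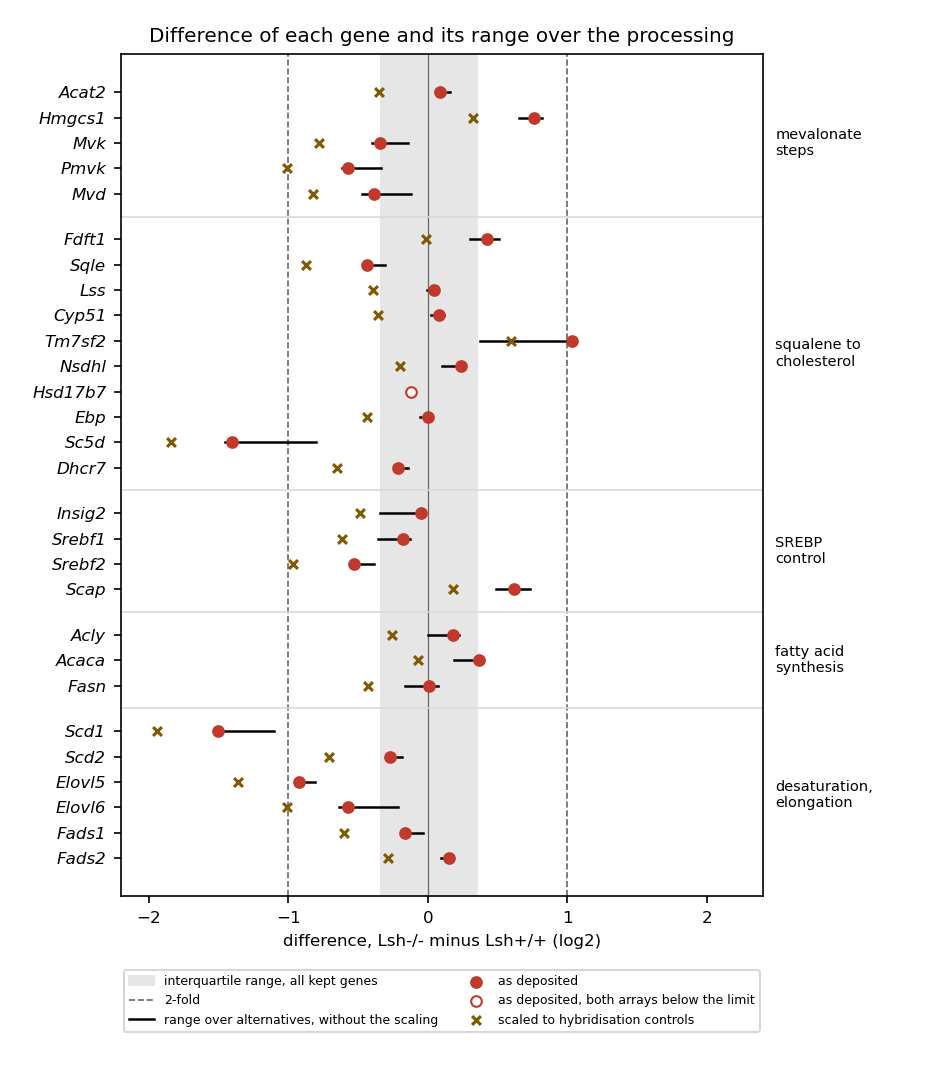
Difference of each gene, Lsh-/- minus Lsh+/+ on the log2 scale, as deposited (points), its range over the alternatives other than the scaling (black lines) and its value after scaling to the hybridisation controls (crosses). Grey marks the interquartile range of all kept genes, -0.34 to 0.35, and dashed lines mark 2-fold. Scd1 stays beyond 2-fold throughout, while Tm7sf2 and Sc5d cross that line under some settings.

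None of the 4 kept control genes reached 2-fold, though Scap and Srebf2 lay outside the interquartile range of all kept genes, -0.34 to 0.35. Srebf1, which encodes the SREBP forms that favour fatty acid genes, read 7.22 in Lsh-/- MEF and 7.40 in Lsh+/+ MEF, a difference of -0.18. Srebf2, which encodes the form that favours sterol genes and is itself an SREBP target, read 6.14 in Lsh-/- MEF and 6.67 in Lsh+/+ MEF, a difference of -0.53. Scap, the sterol-sensing escort of SREBP to the Golgi, read 7.21 in Lsh-/- MEF and 6.59 in Lsh+/+ MEF, a difference of 0.62 or 1.54-fold. Scap was the only 1 of the 4 kept control genes above 0 and remained so, at 0.18, after scaling to the hybridisation controls.

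Insig2, an endoplasmic reticulum anchor of SCAP, was measured by rows that did not read alike. The brighter row read 6.10 in Lsh-/- MEF and 6.15 in Lsh+/+ MEF, a difference of -0.05, and the other read 5.63 in Lsh-/- MEF and 6.26 in Lsh+/+ MEF, a difference of -0.63. Transcripts of 1 gene can differ in this way, and neither row reached 2-fold. The other anchor, Insig1, had no matched row, so the pair could not be compared.

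The 3 enzymes that make palmitate all had differences above 0, though small. Acly, the citrate lyase that supplies cytosolic acetyl-CoA, read 7.25 in Lsh-/- MEF and 7.07 in Lsh+/+ MEF. Acaca, the carboxylase that commits acetyl-CoA to fatty acids, read 7.04 in Lsh-/- MEF and 6.68 in Lsh+/+ MEF. Fasn, fatty acid synthase, read 7.79 in Lsh-/- MEF and 7.78 in Lsh+/+ MEF. The differences were 0.18, 0.37 and 0.01, and that of Acaca lay just above the upper quartile of all kept genes, 0.35. All 3 genes lie on chromosome 11, whose 817 kept genes had a median difference of 0.18. With chromosome medians subtracted they were at 0.004, 0.19 and -0.17, and after scaling to the hybridisation controls all 3 were below 0.

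Enzymes that desaturate and elongate fatty acids mostly read lower in Lsh-/- MEF, with 5 of 6 below 0 and a median of -0.42. Above 0 lay 16.7% of the 6, against 50.5% of all kept genes. Scd1, the stearoyl-CoA desaturase that makes oleate and a target of SREBP and LXR, read 5.72 in Lsh-/- MEF and 7.23 in Lsh+/+ MEF. It was 2.84-fold lower, with a difference of -1.51, the lowest of the 27 kept members, and 2.89% of kept genes had a lower one. Its difference stayed past 2-fold under every alternative setting of the values, from -1.94 to -1.10, though not at a threshold of 3-fold.

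Scd2, its paralogue and a desaturase important in early mouse development, read 5.97 in Lsh-/- MEF and 6.24 in Lsh+/+ MEF. Its difference was -0.27, and that of Scd1 minus that of Scd2 was -1.23, so the paralogues were not lower by a like amount on these arrays. Both genes lie on chromosome 19, whose kept genes had a median difference of -0.01. Near-identical stretches of paralogues can share probe signal, and the probe grouping behind the rows was not given in the sources used here. Scd3 lay below the limit on both arrays, and Scd4 was unmatched.

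The elongases followed the same sign. Elovl5, which extends polyunsaturated fatty acids, read 9.13 in Lsh-/- MEF and 10.1 in Lsh+/+ MEF, a difference of -0.92 or 1.90-fold lower, just inside 2-fold. Elovl6, which extends palmitate to stearate, read 3.97 in Lsh-/- MEF and 4.54 in Lsh+/+ MEF, a difference of -0.58. Its Lsh-/- value lay just above the limit of 3.88, and with the pseudocount the difference was -0.22. The front-end desaturases differed least. Fads1 read 8.71 in Lsh-/- MEF and 8.88 in Lsh+/+ MEF, and Fads2, its neighbour in the same cluster on chromosome 19, read 5.82 in Lsh-/- MEF and 5.67 in Lsh+/+ MEF. Their differences of -0.17 and 0.15 had opposite signs, and both were below 0 after scaling to the hybridisation controls.

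**Figure D3:**
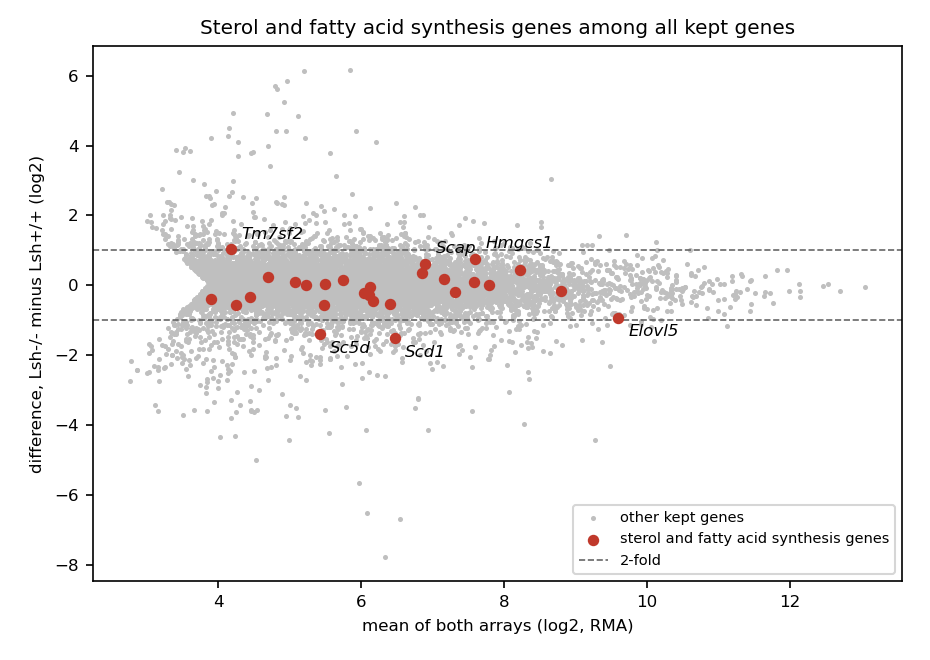
Difference (Lsh-/- minus Lsh+/+, log2) against the mean of both arrays for all 9168 kept genes (grey) and the 27 kept sterol and fatty acid synthesis genes (red), with dashed lines at 2-fold. The red points lie within the grey cloud, with Scd1 and Sc5d below the lower line and Tm7sf2 at the upper one, in the dim part of the range.

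Genes around the pathway were described from 8 further lists of 125 genes, chosen for their function. Other sterol synthesis enzymes held no gene past 2-fold among 8 kept, with a median of -0.11. Farthest from 0 was Por, the reductase that gives electrons to CYP51 and squalene epoxidase, with 8.01 in Lsh-/- MEF and 8.83 in Lsh+/+ MEF, a difference of -0.82. Msmo1, a methyl sterol oxidase of the sterol branch, differed by -0.02.

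Sterol uptake and transport genes mostly read lower, with 7 of 9 kept genes below 0 and a median of -0.63. Above 0 lay 22.2% of the 9, against 50.5% of all kept genes. Vldlr, a lipoprotein receptor, read 4.99 in Lsh-/- MEF and 6.72 in Lsh+/+ MEF, 3.32-fold lower. Scarb1, the HDL receptor, read 6.27 in Lsh-/- MEF and 7.36 in Lsh+/+ MEF, 2.13-fold lower. These 2 were past 2-fold, though Scarb1 was at -0.85 with the pseudocount. They made 22.2% of the 9, against 6.06% of all kept genes at least 2-fold lower. Lipa, the lysosomal lipase that frees cholesterol from lipoproteins, went the other way, at 8.56 in Lsh-/- MEF and 7.57 in Lsh+/+ MEF, 1.99-fold.

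Genes of sterol efflux and of the LXR sterol sensors were partly dim. Abca1 and Abcg1, the main efflux pumps, and Nr1h3, an LXR, lay below the limit on both arrays. Lpcat3, a phospholipid acyltransferase that LXR controls, was the only 1 of 9 kept genes past 2-fold, at 7.72 in Lsh-/- MEF and 6.69 in Lsh+/+ MEF, a difference of 1.04. It was under 2-fold with chromosome medians subtracted, at 0.75, with the pseudocount, at 0.85, and after scaling to the hybridisation controls, at 0.60. The share at least 2-fold higher was 11.1% of the 9, against 4.65% of all kept genes. Apoe, which carries sterol out of cells, read 7.74 in Lsh-/- MEF and 6.78 in Lsh+/+ MEF, a difference of 0.96. Mylip, a ubiquitin ligase that LXR controls, differed by -0.76 and Nr1h2, the other LXR, by -0.62.

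Genes for SREBP cleavage and for sterol-driven degradation in the endoplasmic reticulum were mixed, with 10 of 16 kept genes above 0 and a median of 0.16, which was -0.27 after scaling to the hybridisation controls. The only 1 past 2-fold was Pgrmc1, a membrane haem protein that binds INSIG and CYP51, which was lower, at 7.07 in Lsh-/- MEF and 8.31 in Lsh+/+ MEF, a difference of -1.23. Above 0 lay 62.5% of the 16, against 50.5% of all kept genes. At least 2-fold lower were 6.25% of the 16, against 6.06% of all kept genes. Of the degradation factors, chosen for mention after their values were seen, Faf2, Erlin1 and Erlin2 differed by 0.90, 0.82 and 0.55. These 3 stayed above 0 after that scaling, at 0.46, 0.38 and 0.12. Rnf139, Aup1, Syvn1, Ubxn4 and Ufd1 differed by 0.41, 0.29, 0.20, 0.13 and -0.03, and all 5 were below 0 after it, between -0.47 and -0.03. The proteases Mbtps1 and Mbtps2, which cut SREBP in the Golgi, differed by 0.26 and -0.26.

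Other genes of fatty acid synthesis held the farthest values near the pathway, with a median of -0.32. At least 2-fold lower were 3 of 15 kept genes or 20%, against 6.06% of all kept genes. At least 2-fold higher was 1 of the 15 or 6.67%, against 4.65% of all kept genes. Acacb among the lower genes and Acss2, the higher one, rest on a dim value, and with values below the limit set to the limit they were at -0.82 and 0.48, which leaves 2 lower and none higher. Mid1ip1, which activates acetyl-CoA carboxylase by polymerising it, read 6.91 in Lsh-/- MEF and 9.18 in Lsh+/+ MEF, 4.84-fold lower. Acacb, the mitochondrial carboxylase, read 2.88 in Lsh-/- MEF and 4.70 in Lsh+/+ MEF, at least 1.76-fold lower over the limit. Slc25a1, which exports the citrate that ACLY cuts, read 6.04 in Lsh-/- MEF and 7.06 in Lsh+/+ MEF, 2.03-fold lower, which was under 2-fold with the pseudocount, at -0.76, and with chromosome medians subtracted, at -0.86. Acss2, the acetyl-CoA synthetase that makes acetyl-CoA from acetate, read 4.34 in Lsh-/- MEF and 3.15 in Lsh+/+ MEF, at least 1.40-fold higher over the limit. Acaca itself differed by 0.37, while Mid1ip1, its activator, and Slc25a1, which supplies citrate, read lower.

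Scd1 is also counted among adipocyte genes. Of 12 other adipocyte markers 6 were kept, and these had no common direction. Lpl, the lipoprotein lipase, read 8.48 in Lsh-/- MEF and 6.65 in Lsh+/+ MEF, 3.56-fold higher. Lipe, the hormone-sensitive lipase, read 3.99 in Lsh-/- MEF and 4.99 in Lsh+/+ MEF, 2.01-fold lower, which was under 2-fold with the pseudocount, at -0.41, and with chromosome medians subtracted, at -0.93. Fabp4 differed by -0.90.

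**Figure D4:**
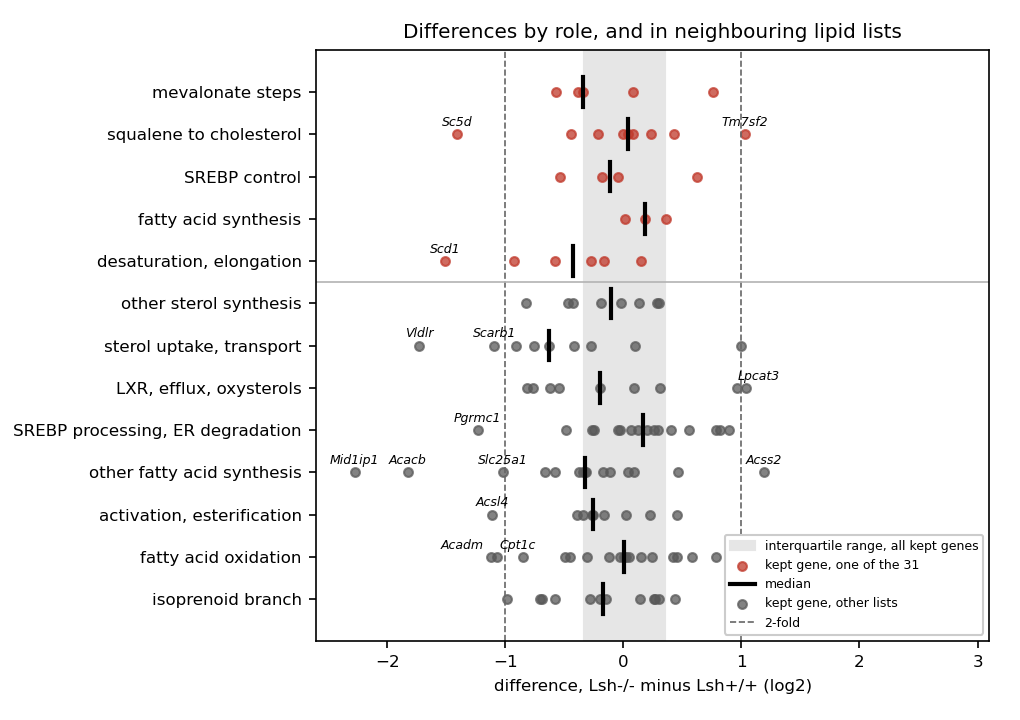
Differences (Lsh-/- minus Lsh+/+, log2) of the kept genes by role for the sterol and fatty acid synthesis genes (red) and for 8 neighbouring lipid lists (dark grey), with medians as black bars, the interquartile range of all kept genes as a grey band and 2-fold as dashed lines. Medians run from -0.63 for sterol uptake to 0.18 for fatty acid synthesis, and Mid1ip1 is the farthest gene at -2.27.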

How the data were processed

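Total RNA was extracted with Trizol, made into biotin-labelled cDNA and hybridised to arrays, per the labels' protocols. The deposited values were made by the authors with RMA, per the submitters' processing notes, and were taken as log2 from their range, 0.89 to 13.1. Version, grouping of probes and genome build are not given in the sources used here. Of 23950 rows, 64 were controls and 21230 matched 1 gene of the GRCm38.p6 RefSeq table by unversioned accession. For a gene with several rows, the row of the highest mean was used. The number of arrays limits the precision.

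The members and lists were chosen with earlier results of these data known. All members were named. From other lists up to 4 kept genes past 2-fold in each direction were named, otherwise the farthest from 0. Further genes (Fn1, Vim, Col3a1, Pdgfra, Pdgfrb, Krt8, Lbr, Msmo1, Lipa, Apoe, Mylip, Nr1h2, Fabp4, Ggps1, Cpt1a, Cpt2, Mbtps1 and Mbtps2, the degradation factors and the genes below the limit) were named after their values were seen. No protein sequences were used, and some genes of the other lists are not reported here. Alternatives are given at the end. Counting was tested on simulated data. Python 3.11.15, numpy 2.4.6, pandas 2.3.3 and statsmodels 0.14.6 were used. Promoter sequences are from RefSeq (GRCm38.p6).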

Additional observations from a re-analysis of the deposited data

How the results depend on the processing

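No paired analysis was possible because there was 1 array per genotype, which also leaves no replicate to drop. Subtracting chromosome medians and setting dim values to the limit were chosen after seeing the data, and the direction of a difference is relative to the scaling. All 9168 kept genes gave 426 higher and 556 lower genes. These became 101 and 192 with the pseudocount of 32, 225 and 314 with an upper-quartile limit, 168 and 1349 after scaling to the hybridisation controls, 1254 and 1267 at 1.5-fold, and 131 and 240 at 3-fold. By their construction, a stricter limit or threshold counts fewer genes, the pseudocount shrinks the differences of dim genes, and the scaling lowers every Lsh-/- value by 0.44. Among members, the count of 1 higher became 0 with the upper quartile, the loess trend removed (span 0.3), the pseudocount, the scaling, 3-fold, and dim values set to the limit, and 3 at 1.5-fold. The count of 2 lower became 1 with the pseudocount, 5 with the scaling, 3 at 1.5-fold and 0 at 3-fold. The mean over rows, no limit, quantile normalization, identical values counted once and chromosome medians subtracted left both member counts as they were. Of the single members, 3 passed 2-fold under the scaling only, Pmvk at -1.01, Elovl5 at -1.36 and Elovl6 at -1.01, and no called member changed sign.

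Medians were taken to have moved where they shifted by more than 0.34, the quartile deviation of all differences. The scaling moved every median, to -0.49 for the members, -0.78 for the mevalonate steps, -0.39 for squalene to cholesterol, -0.55 for SREBP control, -0.26 for fatty acid synthesis, -0.86 for desaturation and elongation, -0.54 for other sterol synthesis, -1.07 for uptake, -0.63 for LXR and efflux, -0.27 for SREBP processing, -0.76 for other fatty acid synthesis, -0.69 for activation and esterification, -0.43 for oxidation and -0.61 for the isoprenoid branch. With the limit at the upper quartile the mevalonate median was 0.42 over 2 genes, that of squalene to cholesterol -0.33 over 4 and that of LXR and efflux 0.20 over 6. Dim genes are limited by the unknown background.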

Other observations

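Fatty acid oxidation, the reverse route, showed no common direction, with 9 of 17 kept genes above 0, 8 below and a median of 0.01. The share above 0 was 52.9% of the 17, near the 50.5% of all kept genes. Acadm, the medium-chain acyl-CoA dehydrogenase, read 6.40 in Lsh-/- MEF and 7.52 in Lsh+/+ MEF, 2.17-fold lower, and Cpt1c, a relative of carnitine palmitoyltransferase found mainly in brain, read 5.43 in Lsh-/- MEF and 6.50 in Lsh+/+ MEF, 2.10-fold lower. Cpt1a and Cpt2, which carry fatty acids into mitochondria, differed by 0.58 and 0.24. Of the genes that activate and esterify fatty acids, Acsl4, an acyl-CoA synthetase that prefers arachidonate, was the only 1 of 9 kept past 2-fold, at 5.03 in Lsh-/- MEF and 6.14 in Lsh+/+ MEF, a difference of -1.11. At least 2-fold lower were 11.8% of the kept oxidation genes and 11.1% of these 9, against 6.06% of all kept genes. With the pseudocount Acadm, Cpt1c and Acsl4 were all under 2-fold, at -0.89, -0.71 and -0.67. Cpt1c was also just under it with chromosome medians subtracted, at -0.999.

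The isoprenoid branch, which uses the products of FDPS for prenylation and for ubiquinone and dolichol, had no gene past 2-fold among 12 kept, and a median of -0.17. Its farthest gene was Rabggtb, a subunit of the transferase that prenylates Rab proteins, at 6.68 in Lsh-/- MEF and 7.67 in Lsh+/+ MEF, a difference of -0.99. Ggps1, which makes geranylgeranyl diphosphate, differed by -0.58.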
